A study of Homo sapiens with 24 samples.

Results

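DIO2, HSD11B1 and MAOA are 3 enzymes that activate or break down small signalling molecules. They were picked by gene name out of the 58735 genes of the count table, because their RNA showed some of the strongest shifts with radiation or with the drug CB-839. All 3 had enough reads to be tested, among 15956 genes that did. Their radiation and CB-839 differences are therefore what chose them, and these are given below as a description with standard errors and without a test.

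DIO2, type 2 iodothyronine deiodinase, is a short-lived selenoprotein of the endoplasmic reticulum that removes an iodine from the prohormone thyroxine (T4) and so makes the active thyroid hormone T3 inside the cell. HSD11B1, 11-beta-hydroxysteroid dehydrogenase type 1, regenerates active cortisol from inert cortisone in the lumen of the same organelle, using NADPH that H6PD supplies there, while HSD11B2 runs the opposite reaction. MAOA, monoamine oxidase A, sits on the outer mitochondrial membrane and oxidises serotonin, noradrenaline and dopamine, releasing an aldehyde, ammonia and hydrogen peroxide.

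RNA came from SAS, an established human oral squamous carcinoma line grown in DMEM with 10% serum, carrying either wild-type (WT) NRF2 or the E79Q substitution of this oxidative stress transcription factor. How the E79Q form was brought into the cells, and whether each genotype is a single clone, is not given in the sources used here. Each genotype was studied untreated, with CB-839 at 0.1 µM, after radiation at 4 Gy, and with both, in 3 libraries per group and 24 in all. CB-839 is an inhibitor of glutaminase. It or vehicle was applied 24 h ahead of the radiation, and RNA of irradiated cells was taken 24 h after it. When RNA of the unirradiated cells was taken is not given. Their time with the drug may therefore differ from that of the irradiated cells. The study's design text describes only the 12 irradiated libraries, so radiation and any separate preparation of the 12 unirradiated ones cannot be told apart. The labels do not say whether the replicates were separate cultures, so the p-values measure the spread between these libraries, which may be technical. As whole cultures were sequenced, fewer cells that express a gene and less of its RNA per cell cannot be told apart.

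Total counts ran from 14285084 to 23640197 per library. NQO1, a standard NRF2 target, averaged 292 to 400 CPM (a library's counts scaled to one common size by TMM factors) in the 4 WT groups and 565 to 755 CPM in the 4 E79Q groups. CDKN1A, which responds to radiation through p53, averaged 55.9 CPM in untreated and 91.6 CPM in irradiated WT cells, and 38.2 and 103 CPM in E79Q cells. The 8 squamous epithelial markers were all tested and summed to 1651 to 3173 CPM per library. Of the fibroblast list 4 of 8 genes were tested. In E79Q cells 2 of these were lower with radiation and 2 with CB-839 by edgeR, and their part in the enzyme results was not tested. The sum of all 8 stayed between 4.06 and 8.51 CPM outside the untreated E79Q group, where replicate 2 reached 49.4 CPM through COL1A1 and COL1A2. The fibroblast markers LUM, DCN and THY1 stayed at or below 0.330 CPM in every library, and of the leukocyte markers PTPRC had 2 reads and CD3E 1 read over all 24. The 7 endothelial and leukocyte markers, 3 of them tested, summed to 2.32 to 7.29 CPM, mostly through VWF (1.29 to 4.2 CPM) and CD14 (0.197 to 3.55 CPM). Of those tested, 2 were lower with CB-839 in WT cells and 1 was lower in E79Q cells on average by edgeR, and their part in the enzyme results was not tested.

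On GRCh38, DIO2 (ENSG00000211448) spans 80197527 to 80387757 on the minus strand of chromosome 14, with 7494 bp of exon in the deposited table and 11 annotated transcripts, 9 of them coding. HSD11B1 (ENSG00000117594) spans 209686178 to 209734950 on the plus strand of chromosome 1, with 1513 bp and 4 transcripts, 4 of them coding. MAOA (ENSG00000189221) spans 43654907 to 43746824 on the plus strand of chromosome X, with 5528 bp and 4 transcripts, 2 of them coding. The antisense gene DIO2-AS1 shares 70 bp of exon with DIO2 and had 0 to 3 counts per library, against 268 to 3860 for DIO2. The antisense gene AL031316.1 lies over HSD11B1 with 0 bp of shared exon and had 0 to 19 counts, against 173 to 1581 for HSD11B1. The strand setting of the counting is not given, so reads of such a pair cannot be told apart where exons overlap. MAOA, with 60 to 617 counts per library, had no annotated gene over it.

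The upstream sequences of the genes that lie at the opposite ends of the pattern are shown because DIO2 was low where HSD11B1 was high. Both come from RefSeq on GRCh38.p14, within 250 bases before a transcription start, and capitals mark the motifs found. The DIO2 stretch is chr14:80212179-80212428 on the minus strand, and the HSD11B1 stretch is chr1:209685929-209686177 on the plus strand.
DIO2: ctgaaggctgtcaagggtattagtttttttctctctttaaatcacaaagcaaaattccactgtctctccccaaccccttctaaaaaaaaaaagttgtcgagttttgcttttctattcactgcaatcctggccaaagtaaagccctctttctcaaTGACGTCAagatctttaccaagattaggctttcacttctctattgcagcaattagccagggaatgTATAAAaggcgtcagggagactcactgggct
HSD11B1: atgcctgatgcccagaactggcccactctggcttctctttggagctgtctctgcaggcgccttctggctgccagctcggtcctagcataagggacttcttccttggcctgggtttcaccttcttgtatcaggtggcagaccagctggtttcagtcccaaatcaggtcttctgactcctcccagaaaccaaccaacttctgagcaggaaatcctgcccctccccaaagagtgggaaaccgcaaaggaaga
The letters searched, on both strands, were the cyclic AMP response element (CRE) TGACGTCA, the AP-1 site TGANTCA, the antioxidant response element core TGACNNNGC, the amino acid response element core TGATGNAA, the GC box GGGCGG and the TATA box TATAAA. The DIO2 window held the CRE, beginning 96 bases before the start, and the TATA box, beginning 31 bases before it. Across 35116 RefSeq windows of the same length, 1.65% held the CRE and 10.7% the TATA box, while 6.57% held the AP-1 site, 10.9% the antioxidant core, 3.14% the amino acid core and 42.6% a GC box. Neither a second RefSeq start of DIO2 nor the HSD11B1 window held any of the 6 motifs. The MAOA window lies inside an annotated exon and is not shown. It held 4 GC boxes, all on the opposite strand, beginning 199, 146, 104 and 56 bases before the start. These matches describe letters only, and nothing follows from them about binding.

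Among 11798 genes with a mean log2 CPM of at least 1, DIO2 ranked 3rd from the bottom by the radiation difference in WT cells and 8th in E79Q cells, and 74th and 4th by the CB-839 difference. From the top of the radiation differences, MAOA ranked 2nd in WT and 30th in E79Q cells and HSD11B1 8th and 41st. These ranks show how the members were selected and support nothing further. The share of all tested genes called by edgeR at an adjusted p under 0.05 was 9.41% higher and 8.49% lower for radiation in WT cells, and 12.2% higher and 10.1% lower in E79Q cells. For CB-839 it was 6.35% higher and 8.44% lower in WT cells, and 9.44% higher and 10.4% lower in E79Q cells.

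DIO2 was highest in untreated WT cells and lower in every treated group of both genotypes. The 3 untreated WT libraries held 212, 205 and 195 CPM. With CB-839 they held 108, 102 and 93.0 CPM, after radiation 75.3, 63.6 and 73.5 CPM, and with both 27.9, 36.0 and 35.3 CPM. The 4 WT groups did not overlap, and each treatment on its own, as well as their combination, lay below the untreated libraries. In E79Q cells the untreated libraries held 115, 133 and 139 CPM and those with CB-839 held 31.3, 34.8 and 32.1 CPM. After radiation the E79Q libraries held 52.1, 51.0 and 55.3 CPM, and with both treatments 18.6, 12.4 and 19.9 CPM. The 4 E79Q groups did not overlap either, but the middle of the order was turned round: in WT cells the irradiated group was below the CB-839 group, and in E79Q cells the CB-839 group was below the irradiated one.

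Group means of DIO2 ran from 204 ± 8.81 CPM (SD, n = 3) in untreated WT cells to 17.0 ± 4.03 CPM in E79Q cells given both treatments, a 12.0-fold range. In descending order the groups were untreated WT, untreated E79Q, WT with CB-839, irradiated WT, irradiated E79Q, WT with both, E79Q with CB-839 and E79Q with both. Of these neighbours, WT with both (33.0 CPM) and E79Q with CB-839 (32.7 CPM) overlapped, and the other neighbours did not. In E79Q cells given the drug alone, DIO2 was thus at the level that WT cells had after both treatments.

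Radiation went with 2.88-fold lower DIO2 in WT cells (log2 -1.53, SE 0.106) and 2.44-fold lower in E79Q cells (log2 -1.29, SE 0.107). CB-839 went with 2.02-fold lower DIO2 in WT cells (log2 -1.01, SE 0.104) and 3.94-fold lower in E79Q cells (log2 -1.98, SE 0.113). The drug difference was thus larger in E79Q cells by 0.96 on the log2 scale (E79Q minus WT -0.96, SE 0.152), while the radiation differences were 0.24 apart (SE 0.149). In irradiated cells CB-839 went with a further 2.14-fold lower level in WT (log2 -1.10, SE 0.111) and 3.12-fold in E79Q (log2 -1.64, SE 0.120). The radiation difference in the presence of the drug was -1.61 (SE 0.111) in WT cells and -0.95 (SE 0.124) in E79Q cells. On the log2 scale the treatments came close to adding up in WT cells, where the radiation difference with drug minus that without was -0.09 (SE 0.151). It was 0.03 without replicate 1 of the WT cells given both treatments. In E79Q cells that quantity was 0.33 (SE 0.164), and it was 0.54 without replicate 2 and 0.22 without replicate 3 of the E79Q cells given both. With both treatments together DIO2 was 6.18-fold lower in WT cells and 7.63-fold lower in E79Q cells than without treatment.

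**Figure D1:**
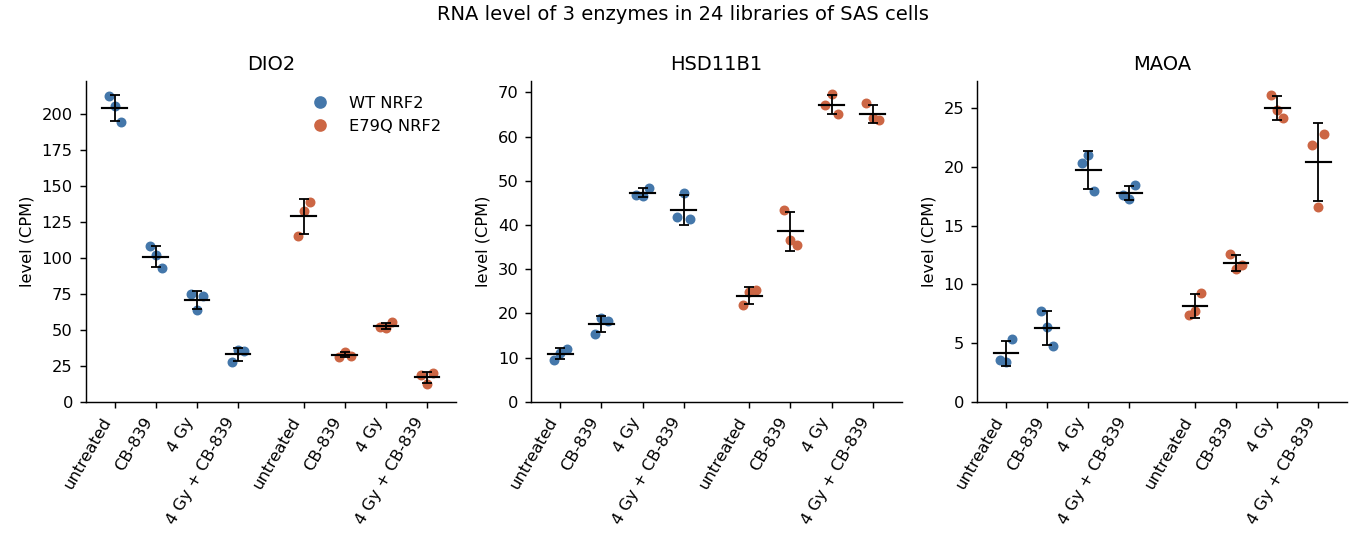
RNA level in CPM (linear axis from 0) of DIO2, HSD11B1 and MAOA in each of the 24 libraries, by genotype and treatment; points are libraries, long horizontal lines are means and bars are SDs of 3 libraries. DIO2 runs down from 204 CPM in untreated WT cells to 17.0 CPM in E79Q cells with both treatments, while HSD11B1 and MAOA are highest in irradiated E79Q cells, at 67.2 and 25.0 CPM.

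HSD11B1 followed the opposite course, with its lowest level in untreated WT cells and its highest in irradiated E79Q cells. Untreated WT libraries held 9.51, 11.2 and 12.0 CPM, and with CB-839 they held 15.5, 19.0 and 18.3 CPM. Irradiated WT libraries held 46.7, 46.6 and 48.5 CPM, and those with both treatments 41.8, 47.2 and 41.2 CPM. All irradiated WT libraries lay above all unirradiated ones, and the drug separated the groups in unirradiated cells but not in irradiated cells. Untreated E79Q libraries held 21.8, 24.9 and 25.3 CPM, and with CB-839 43.5, 36.7 and 35.5 CPM. Irradiated E79Q libraries held 67.0, 69.5 and 65.1 CPM, and those with both treatments 67.5, 64.1 and 63.7 CPM. The E79Q groups showed the same arrangement as the WT groups at a higher level.

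The highest group mean of HSD11B1, 67.2 ± 2.21 CPM (SD, n = 3), was 6.18-fold above the lowest, 10.9 ± 1.26 CPM. The descending order was irradiated E79Q, E79Q with both, irradiated WT, WT with both, E79Q with CB-839, untreated E79Q, WT with CB-839 and untreated WT. The first and second groups overlapped each other, as did irradiated WT with WT under both treatments, and the latter with E79Q under CB-839. In the last of these pairs the overlap came from 1 E79Q library at 43.5 CPM, and the other E79Q libraries with CB-839 lay below all WT libraries with both treatments.

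Radiation went with 4.34-fold higher HSD11B1 in WT cells (log2 2.12, SE 0.0952) and 2.80-fold higher in E79Q cells (log2 1.49, SE 0.0862), a difference between genotypes of -0.63 (SE 0.129). With the drug present the radiation differences were 2.47-fold in WT (log2 1.30, SE 0.0900) and 1.69-fold in E79Q (log2 0.76, SE 0.0836). CB-839 went with 1.62-fold higher HSD11B1 in unirradiated WT cells (log2 0.69, SE 0.102) and 1.60-fold in unirradiated E79Q cells (log2 0.68, SE 0.0887), so the genotypes were -0.01 apart (SE 0.133). In irradiated cells the drug difference was -0.12 (SE 0.0831) in WT and -0.05 (SE 0.0804) in E79Q, and the groups overlapped. The radiation difference with drug minus that without was -0.82 (SE 0.131) in WT cells and -0.73 (SE 0.120) in E79Q cells. The treatments therefore did not add up on the log2 scale for HSD11B1, unlike DIO2 in WT cells.

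MAOA had an arrangement similar to that of HSD11B1 at a lower level. Untreated WT libraries held 3.57, 3.44 and 5.39 CPM, and those with CB-839 7.73, 6.35 and 4.78 CPM. Irradiated WT libraries held 20.4, 21.0 and 17.9 CPM, and those with both treatments 17.6, 17.2 and 18.5 CPM. Irradiated WT libraries all lay above unirradiated ones, and with or without radiation the drug groups overlapped their controls. Untreated E79Q libraries held 7.40, 7.76 and 9.28 CPM, and with CB-839 12.6, 11.3 and 11.6 CPM. Irradiated E79Q libraries held 26.2, 24.8 and 24.2 CPM, and with both treatments 21.8, 16.6 and 22.8 CPM. In E79Q cells the drug groups did not overlap their controls, lying above them without radiation and below them with it.

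The highest group mean of MAOA, 25.0 ± 1.02 CPM (SD, n = 3) in irradiated E79Q cells, was 6.06-fold above the lowest, 4.13 ± 1.09 CPM in untreated WT cells. The next groups, E79Q with both treatments (20.4 CPM), irradiated WT (19.8 CPM) and WT with both (17.8 CPM), overlapped their neighbours in this order. Below them came E79Q with CB-839 at 11.9 CPM, apart from its neighbours, and then untreated E79Q, WT with CB-839 and untreated WT, each overlapping the next.

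Radiation went with 4.78-fold higher MAOA in WT cells (log2 2.26, SE 0.156) and 3.08-fold higher in E79Q cells (log2 1.62, SE 0.139), a difference between genotypes of -0.64 (SE 0.213). Under the drug these were 2.83-fold (log2 1.50, SE 0.147) and 1.72-fold (log2 0.78, SE 0.136). CB-839 went with log2 differences of 0.60 (SE 0.177) in WT and 0.54 (SE 0.150) in E79Q cells without radiation, and of -0.15 (SE 0.129) and -0.30 (SE 0.125) after it. The size of the last of these depends much on 1 library, since it was -0.16 without replicate 2 of the E79Q cells given both treatments. The radiation difference with the drug minus that without was -0.76 (SE 0.219) in WT and -0.84 (SE 0.195) in E79Q cells.

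**Figure D2:**
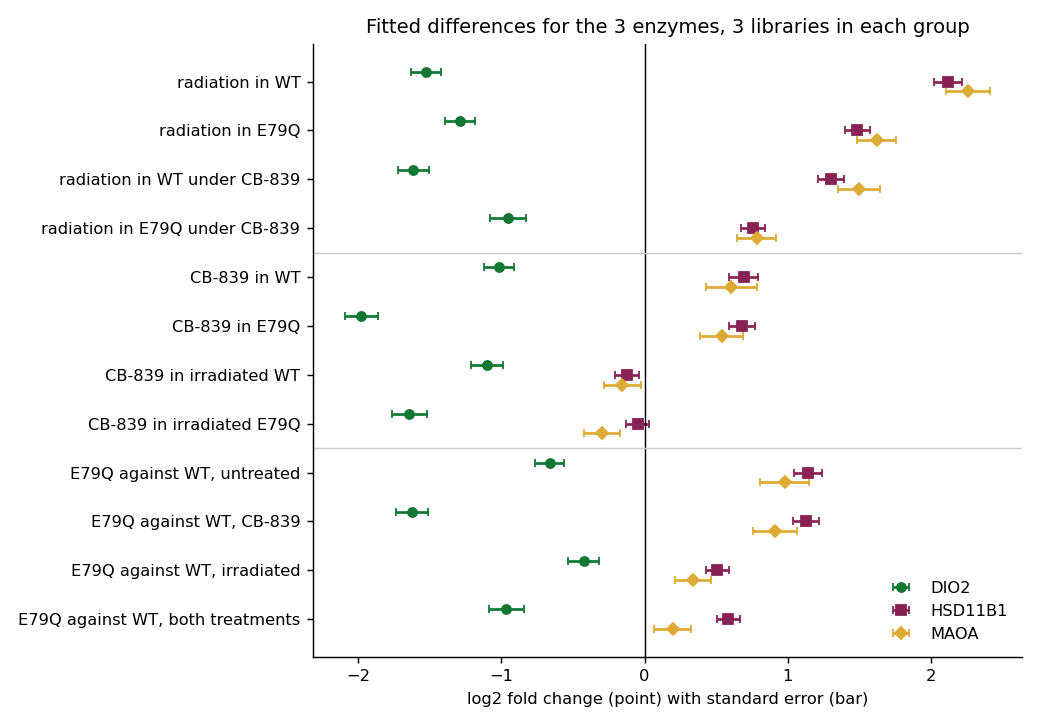
Fitted log2 fold changes (points) with their standard errors (bars) for the 3 enzymes in 12 comparisons, each of 3 libraries against 3; the vertical line marks no difference. DIO2 is left of the line in all 12, and HSD11B1 and MAOA are right of it except under CB-839 in irradiated cells, where they lie between -0.30 and -0.05.

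The NRF2 genotype was compared over all treatments, since this average uses no treatment difference within a genotype, the kind of difference that chose the members. The choice was made with earlier results of these data known, so it may not be free of the genotype differences. DIO2 averaged 57.9 CPM in the 12 E79Q libraries and 102 CPM in the 12 WT libraries. It was 1.89-fold lower in E79Q cells (log2 -0.92, SE 0.0558, edgeR quasi-likelihood test with Benjamini-Hochberg adjusted p = 2.83e-13) and lower in 4 of 4 treatments. HSD11B1 averaged 48.7 CPM in E79Q and 29.8 CPM in WT libraries. It was 1.79-fold higher in E79Q cells (log2 0.84, SE 0.0444, edgeR adjusted p = 1.35e-14) and higher in 4 of 4 treatments. MAOA averaged 16.4 CPM in E79Q and 12.0 CPM in WT libraries. It was 1.52-fold higher in E79Q cells (log2 0.61, SE 0.0731, edgeR adjusted p = 2.08e-07), again in 4 of 4 treatments. Of all tested genes, 13.1% were called higher and 12.1% lower in this comparison. All 8 squamous markers were also lower in E79Q cells, with a median log2 difference of -0.62, and the part of this in the enzyme results was not tested. Without the untreated E79Q library that held collagen reads, the averages were -0.93 for DIO2, 0.83 for HSD11B1 and 0.61 for MAOA.

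Within single treatments the size of the genotype difference varied. DIO2 in E79Q against WT cells was lower by log2 -0.66 (SE 0.103) without treatment, -1.62 (SE 0.113) with CB-839, -0.42 (SE 0.108) after radiation and -0.96 (SE 0.122) with both. It was thus widest in the drug group, and the E79Q and WT libraries did not overlap in any treatment. HSD11B1 was higher by 1.14 (SE 0.0990) without treatment and 1.13 (SE 0.0914) with CB-839, but by 0.51 (SE 0.0817) after radiation and 0.58 (SE 0.0820) with both, again with no overlap. For MAOA these values were 0.98 (SE 0.171), 0.91 (SE 0.155), 0.34 (SE 0.126) and 0.20 (SE 0.128), and the libraries overlapped with both treatments. Both HSD11B1 and MAOA thus differed more between genotypes in unirradiated than in irradiated cells. These single-treatment values share libraries with the treatment differences above and were not tested.

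Over the 24 libraries the log2 levels of HSD11B1 and MAOA had a Pearson correlation of 0.963, and over the 8 group means 0.985. After subtracting the group means it was 0.125, so the likeness lies between groups and not between replicates of a group. DIO2 had correlations of -0.816 with HSD11B1 and -0.734 with MAOA over the libraries. After subtracting the group means they were 0.011 and 0.389, so the opposite course too lies between groups. These points share groups and libraries, the enzymes were chosen for such shifts, and the values are a description. The SD of log2 level within groups was 0.17 for DIO2, 0.12 for HSD11B1 and 0.21 for MAOA, against 1.14, 0.89 and 0.91 over all libraries.

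**Figure D3:**
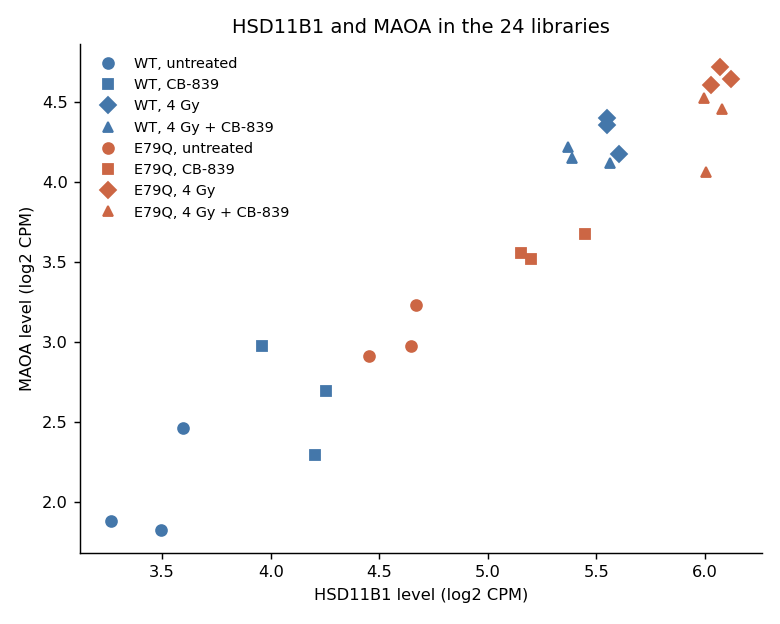
Log2 CPM of MAOA (vertical axis) against HSD11B1 (horizontal axis) in the 24 libraries, colour for genotype and symbol for treatment. The libraries run from untreated WT at the lower left to irradiated E79Q at the upper right, and within a group no such slope is apparent, as the correlation of 0.125 after subtracting group means shows.

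Among 11795 genes searched, the genes most like DIO2 over the 24 libraries included CAV1 (r = 0.975), the membrane scaffold of caveolae, and CCBE1 (r = 0.965). CAV1 spanned group means of 1296 to 2509 CPM and CCBE1 49.3 to 94.7 CPM, both lowest in E79Q cells with both treatments and highest in untreated WT cells, the same ends as DIO2. Most like HSD11B1 were the noncoding LINC00973 (r = 0.980), the lysosomal protease gene CTSS (r = 0.978) and the ERK phosphatase gene DUSP6 (r = 0.970). Most like MAOA were APP (r = 0.955), CTSS (r = 0.953) and SH3TC2 (r = 0.951). CTSS appears in both sets, with group means from 3.39 CPM in untreated WT to 18.0 CPM in irradiated E79Q cells.

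The genes that work beside the 3 enzymes were taken as 14 lists with 122 genes, of which 91 were tested. With radiation 11 of the 91 were higher and 22 lower in WT cells. In E79Q cells 15 were higher and 20 lower, and the median log2 differences were -0.04 and -0.06. With CB-839 5 were higher and 18 lower in WT cells and 11 higher and 16 lower in E79Q cells, with medians of -0.11 and -0.01. In the genotype average 17 were higher and 21 lower in E79Q cells, with a median of -0.01. The median of all tested genes lay between -0.01 and 0.02 in these 5 comparisons. All calls in the lists are edgeR quasi-likelihood calls, adjusted over the 15956 tested genes. Of all tested genes, 9.41% were called higher and 8.49% lower with radiation in WT cells, and 12.2% and 10.1% in E79Q cells. With CB-839 these shares were 6.35% and 8.44% in WT cells and 9.44% and 10.4% in E79Q cells. In the genotype average they were 13.1% and 12.1%. The counts in single lists below stand against the same shares.

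Around DIO2, the other deiodinases were almost without reads: DIO1, which also activates T4, had at most 6 reads per library and DIO3, which inactivates T4 and T3, at most 5, and neither was tested. Of 6 tested transporters of thyroid hormone, 2 rose and 2 fell with radiation in WT cells and 3 rose and 2 fell in E79Q cells. SLC7A5 and SLC3A2, whose products form the LAT1 amino acid transporter that also carries thyroid hormone, fell with radiation by 0.79 and 0.60 on the log2 scale in WT cells and by 0.78 and 0.42 in E79Q cells.

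Of 10 thyroid hormone receptor and cofactor genes, 1 was higher and 3 lower with radiation in WT cells, and 3 were lower in E79Q cells. In the genotype average 1 was higher and 4 lower. Both receptors were lower in E79Q cells on average, THRA by log2 -0.35 (SE 0.04, edgeR adjusted p = 4.33e-07) and THRB by -0.57 (SE 0.05, adjusted p = 2.1e-09). Their partner RXRA fell with radiation by 0.30 in WT and 0.40 in E79Q cells on the log2 scale. Of 7 genes for the ubiquitination and deubiquitination of DIO2 protein, 0 passed in WT cells with either treatment by edgeR, DESeq2 or limma-voom, though 2 were higher with radiation and 2 lower with CB-839 at an unadjusted edgeR p under 0.05. WSB1 and USP20 rose with radiation in E79Q cells by 0.29 and 0.28. Of 6 genes for selenoprotein synthesis 1 passed with radiation in each genotype: EEFSEC, the selenocysteine elongation factor, fell by 0.71 in WT and 0.63 in E79Q cells.

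Around HSD11B1, 5 of 10 other glucocorticoid enzymes were tested. HSD11B2, the opposing enzyme, had group means of 2.77 to 3.83 CPM and passed in 0 of the 5 comparisons by edgeR, DESeq2 or limma-voom, with log2 differences of 0.04 to 0.39 and 1 of them, CB-839 in WT cells, at an unadjusted edgeR p under 0.05. Per exon length (RPKM, CPM per kilobase), HSD11B1 stood at 7.19 in untreated WT and 44.4 in irradiated E79Q cells, and HSD11B2 at 1.04 and 1.28. HSD11B1 thus made up 87.5% ± 1.72 (SD, n = 3) of the summed RNA level of both enzymes in untreated WT cells and 93.8% in untreated E79Q cells. It made up 96.5% in irradiated WT and 97.2% in irradiated E79Q cells. The shares include the values that chose HSD11B1 and were not tested. H6PD, the source of NADPH for HSD11B1, was highest in untreated WT cells, where HSD11B1 was lowest, and among the other groups it did not follow HSD11B1 in reverse. It held 25.0, 21.1 and 21.4 CPM in untreated WT cells, above every other group, and group means of the rest ran from 11.3 to 15.2 CPM. H6PD fell in WT cells by 0.60 with radiation (SE 0.11, edgeR adjusted p = 0.000402) and by 0.74 with CB-839 (SE 0.12, adjusted p = 4.62e-05) on the log2 scale, and in E79Q cells by 0.42 with CB-839 (adjusted p = 0.0162). In E79Q cells with radiation its difference was -0.30, which did not pass, and the genotype average was -0.29 (adjusted p = 0.000611).

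The 8 glucocorticoid receptor and chaperone genes included 4 that fell with radiation in WT cells and 6 in E79Q cells, and 5 that fell with CB-839 in E79Q cells, and in these 3 comparisons 0 were higher by edgeR, at an unadjusted p under 0.05, by DESeq2 or by limma-voom. NR3C1, the glucocorticoid receptor, differed with radiation by -0.22 in WT cells, which did not pass, and fell by 0.26 in E79Q cells (SE 0.09, edgeR adjusted p = 0.029). HSP90AB1, a receptor chaperone, fell by 0.18 and 0.30 with radiation in WT and E79Q cells and by 0.44 with CB-839 in E79Q cells. Of 9 tested genes that glucocorticoids induce in many cells, 3 rose and 3 fell with radiation in WT cells, 3 rose and 1 fell in E79Q cells. With CB-839, 7 of the 9 fell in WT cells, while 3 rose and 2 fell in E79Q cells. TXNIP rose with radiation by 1.38 in WT and 1.72 in E79Q cells, and with CB-839 it fell by 0.48 in WT and rose by 1.02 in E79Q cells. CEBPD fell with radiation by 1.04 and 0.50 and with CB-839 by 1.43 and 0.90. Of 6 known regulators of HSD11B1, 1 rose and 2 fell with radiation in each genotype. With CB-839, 2 fell in WT and 1 in E79Q cells, and 0 rose by edgeR. In the genotype average 3 were higher and 2 lower. Among them CEBPA fell with radiation by 0.62 in both genotypes, while CEBPB rose by 0.24 in E79Q cells and fell by 0.50 with CB-839 in WT cells.

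Around MAOA, its closest relative differed in the opposite direction in the 5 comparisons, though not in every pair of groups. MAOB, which prefers phenylethylamine and lies beside MAOA on chromosome X, held 6.43, 8.77 and 7.04 CPM in untreated WT cells and 5.06, 4.27 and 4.00 CPM in irradiated WT cells. In E79Q cells it held 2.07, 3.35 and 5.15 CPM without treatment, 1.79, 1.54 and 1.93 CPM with CB-839, 2.37, 2.54 and 2.45 CPM after radiation, and 2.95, 3.10 and 1.67 CPM with both. Among E79Q cells given the drug, the mean was thus higher with radiation (2.57 CPM) than without (1.75 CPM), as it was for MAOA. Untreated WT cells thus held the most MAOB and the least MAOA. How reads that fit both related genes were counted is not given. MAOB fell with radiation in WT cells by 0.73 (SE 0.22, edgeR adjusted p = 0.0176) and with CB-839 in E79Q cells by 1.0 (SE 0.27, adjusted p = 0.00986) on the log2 scale. It was lower in E79Q cells in the genotype average (log2 -0.94, SE 0.12, adjusted p = 7.66e-07), where MAOA was higher by 0.61. MAOB did not pass with radiation in E79Q cells (-0.52) or with CB-839 in WT cells (-0.61).

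Per exon length MAOA stood at 0.748 RPKM and MAOB at 2.56 RPKM in untreated WT cells, and at 4.53 and 0.849 RPKM in irradiated E79Q cells. MAOA made up 22.7% ± 5.80 (SD, n = 3) of the summed level of both oxidases in untreated WT cells and 40.2% ± 5.13 with CB-839. The share was 69.9% ± 2.12 in irradiated WT cells and 73.9% ± 3.68 with both treatments. In E79Q cells it was 56.2% ± 8.41 without treatment, 78.0% ± 1.82 with CB-839, 84.2% ± 0.884 after radiation and 80.3% ± 7.04 with both. MAOB was thus the more abundant oxidase RNA in all 6 unirradiated WT libraries, and MAOA in all 12 irradiated ones. These shares include the values that chose MAOA and were not tested.

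**Figure D4:**
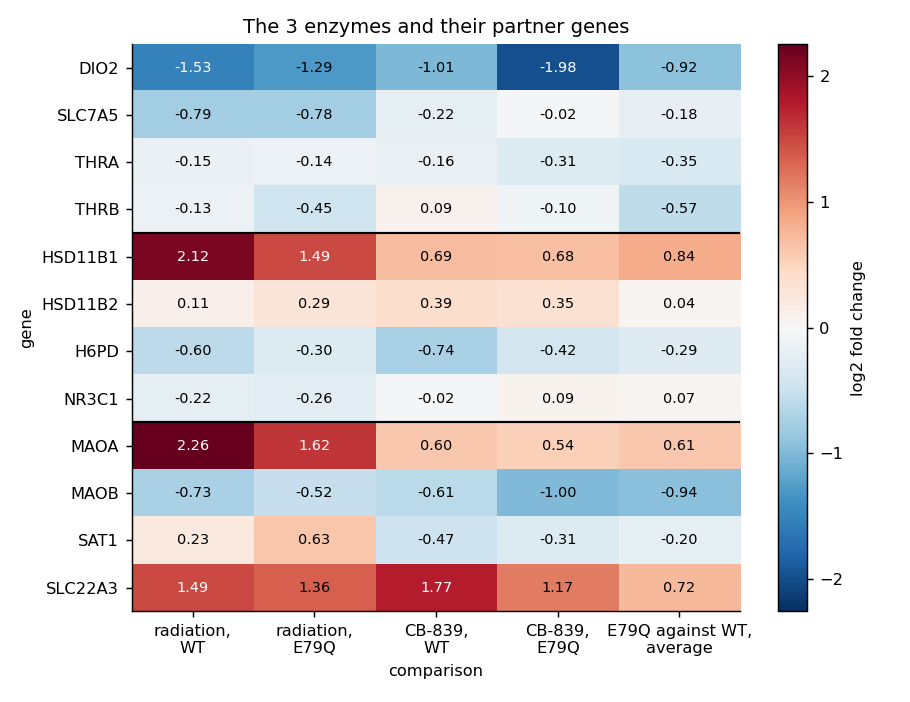
Fitted log2 fold change (colour and printed value) of the 3 enzymes and 9 partner genes (rows) in 5 comparisons (columns); lines divide the thyroid hormone, glucocorticoid and amine genes. MAOA is higher and MAOB lower in all 5 columns, and HSD11B1 is higher and H6PD lower in all 5, though some of the partner values did not pass the test.

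Of the 8 other amine oxidase and conjugation genes tested, 1 rose and 1 fell with radiation in WT cells and 2 rose in E79Q cells. SAT1, a polyamine acetyltransferase, rose with radiation by 0.23 in WT and 0.63 in E79Q cells and fell with CB-839 by 0.47 and 0.31. Among 8 genes that clear aldehydes 1 rose and 3 fell with radiation in WT cells and 2 rose and 2 fell in E79Q cells. In the genotype average 3 of the 8 were higher and 3 lower in E79Q cells. ALDH2, which oxidises the aldehydes that MAOA releases, was among the higher ones (log2 0.36, SE 0.05, edgeR adjusted p = 9.24e-07). ALDH3A2 fell with radiation by 0.43 in WT and 0.36 in E79Q cells.

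Of 15 genes for amine synthesis and transport only 6 were tested, and of these 2 rose with radiation in WT cells. SLC22A3, a low-affinity organic cation transporter that carries monoamines, rose with radiation in both genotypes, by 1.49 (SE 0.37, edgeR adjusted p = 0.00486) in WT and 1.36 (SE 0.30, adjusted p = 0.00135) in E79Q cells. It rose with CB-839 as well, by 1.77 (SE 0.36, adjusted p = 0.000963) and 1.17 (SE 0.31, adjusted p = 0.00772). Its level was low throughout, with group means from 0.378 CPM in untreated WT to 2.73 CPM in E79Q cells with both treatments. Of 6 tested amine receptors 1 passed with radiation in E79Q cells, the serotonin receptor gene HTR1D, which rose by 1.31. Of 6 known regulators of MAOA 2 fell with radiation in WT and 3 in E79Q cells, 3 fell with CB-839 in WT and 1 in E79Q cells. By edgeR, DESeq2 or limma-voom 0 rose in these 4 comparisons, and at an unadjusted edgeR p under 0.05 1 was higher with radiation in E79Q and 1 with CB-839 in WT cells. SP1 fell with radiation by 0.27 and 0.35 in WT and E79Q cells, and CDCA7L, a repressor of MAOA also called R1, fell with CB-839 by 0.18 and 0.30. FOXO1 and KLF11 of the same list differed with CB-839 by -0.57 and -0.47 in WT cells. In E79Q cells they differed by -0.15 and 0.16. The part of these regulators in the MAOA result was not tested.

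Among the 91 tested partner genes, the radiation difference itself differed between genotypes for 3, against 1.26% of all tested genes, and the CB-839 difference for 23, against 14.3% of all tested genes. Of those 23, 16 had a higher value in E79Q cells and 7 a lower one.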

How the data were processed

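RNA of 24 libraries of SAS cells was sequenced by the authors. The authors deposited one table of unnormalized counts by Ensembl gene, with coordinates and a column of other values, the gene lengths in bp. The submitters' processing notes name STAR, HTSeq and GRCh38, without versions. Neither the annotation nor the strand setting was given in the sources used here. From the sample titles, the last 3 columns, whose names are shortened, were assigned to E79Q cells with both treatments. MARCH6 appears as a date-like name and was found by its Ensembl ID. Coordinates and lengths of the members match GENCODE 29.

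The main test was edgeR 4.0.16 in R 4.3.3 (filterByExpr, TMM, quasi-likelihood test, 16 residual degrees of freedom, Benjamini-Hochberg over 15956 genes at 0.05). Standard errors are of log2 fold changes in that model. With 3 against 3 libraries an exact test on 1 gene cannot go below p = 0.1, so calls rest on a spread pooled across genes. Log2 CPM used a prior count of 2. Alternatives were RLE scaling, DESeq2 1.42.0, limma 3.58.1 (voom), other filters, a fit of the compared groups only, a replicate block and left-out libraries. The procedure was tested on simulated data.

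Members and lists were chosen with earlier results of these data known. Named were the members, their nearest relatives and partners, overlapping genes, NQO1 and CDKN1A as checks, in each list the 2 called genes of smallest p in each direction (or the 2 of highest level where none was called), and the 3 genes most like each member; some genes that this rule allows are not reported here. Same-numbered libraries did not deviate together (correlations -0.529 to 0.274), so the numbers were not taken as pairs. No replicates were near-identical: chi-square per gene was 2.23 to 30.2 over 24 pairs.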

Additional observations from a re-analysis of the deposited data

Results flagged for a closer look

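Partner and check genes whose treatment effect differed between the genotypes, by an edgeR quasi-likelihood test of the difference itself, were looked at again. Values are E79Q minus WT log2 effects, with 3 libraries in each of the 4 groups. The radiation effect was more positive in E79Q cells for SGK1 (0.33), CEBPD (0.55), SAT1 (0.40) and CDKN1A (0.72). The CB-839 effect was more positive for SLC7A5 (0.20), SLC3A2 (0.33), NCOA2 (0.56), WSB1 (0.29), SGK1 (0.83), ERRFI1 (0.62), CEBPD (0.53), NFKBIA (0.57), TXNIP (1.51), CEBPB (0.61), FOSL2 (0.32), ALDH2 (0.66), ALDH1A3 (0.35), ALDH7A1 (0.32), KLF11 (0.63), FOXO1 (0.43) and CDKN1A (1.72). It was more negative for FKBP4 (-0.60), HSP90AB1 (-0.50), STIP1 (-0.41), PPARG (-0.55) and ALDH1B1 (-0.50). For CDKN1A, SGK1, TXNIP and ALDH2 the drug effect passed the test in opposite directions, lower in WT and higher in E79Q cells. CDKN1A had the widest gap of these, with -1.01 in WT and 0.71 in E79Q cells. What sets these differences was not tested. No test was run on the differences for DIO2, HSD11B1 and MAOA, which were chosen on the treatment effects.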

How the results depend on the processing

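The genotype averages of DIO2, HSD11B1 and MAOA kept their direction and passed the test in all 21 values from 7 other settings and with each of the 24 libraries left out in turn. Without 1 library they lay between -0.96 and -0.87, 0.81 and 0.85, and 0.56 and 0.66. With the replicate block they were -0.92 (edgeR adjusted p = 4.37e-12), 0.84 (2.38e-13) and 0.61 (5.63e-07), and 3 of 24 libraries correlated best with a library of their own number. The 192 other values and the 576 left-out values of the members' treatment differences kept their sign. Each moved by less than the log2 SD within the groups it compares. For the 576 this says little, because leaving out 1 of 3 libraries can hardly move a mean by that much. The largest move was that of MAOA with CB-839 in WT cells, from 0.60 to 0.84 without replicate 3 of the untreated WT cells. That difference was 0.43 without replicate 1 of the WT cells given CB-839. Of the counts of partner genes, that of genes higher with CB-839 in WT cells changed by over 1.5 times. It went from 5 to 8 when only the compared groups were fitted, and to 9 without 4 libraries whose deviations were earlier seen to follow GC content. Those libraries were replicate 1 of untreated E79Q cells, replicate 3 of WT cells with CB-839, and, with both treatments, replicate 1 of WT and replicate 2 of E79Q cells. The cause of these changes was not tested. The genotype average was not refitted on the compared groups only, since it uses all 8. Depth limits DIO1 and DIO3, and MAOB and SLC22A3 rest on few reads. Single-gene differences in 3 against 3 libraries rely on the pooled spread.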
